A study of Mus musculus with 9 samples.

Results

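The 37 genes described here are the mouse genes of cholesterol synthesis, sterol sensing, fatty acid synthesis, cholesterol export, esterification, lysosomal cholesterol handling and lipid storage. They were taken by symbol from a list of such genes that was drawn up with earlier results of these data known, and they are 37 of the 18571 genes of the expression table. All 37 were among the 14696 genes that passed the filter on low counts and were tested. By role they fall into 16 sterol synthesis enzymes, 3 regulators of sterol synthesis, 4 genes of fatty acid synthesis, 4 genes of cholesterol efflux and its control, 2 of esterification and oxysterol synthesis, 3 of lysosomal cholesterol and 5 of lipid droplets and lipid handling.

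The study asked what loss of the gap junction protein connexin 43 (Cx43, encoded by Gja1) in microglia does in a mouse model of Alzheimer's disease. At 9 months of age, C57BL/6J mice were perfused, cells of the cortex and hippocampus were caught on plates coated with antibody to CD45, and poly-A RNA was sequenced. The 3 groups of 3 libraries were wild type (WT), APP/PS1, which carries human disease transgenes and deposits amyloid, and APP/PS1:Cx3cr1-CreER:Cx43-flox/flox, called the knockout in the text and Cx43 cKO in the plots. Per the labels, all groups received tamoxifen by gavage at 8 months of age, at 0.1 mg/g on 5 days. The labels of WT and APP/PS1 name neither the Cre driver nor the floxed allele, so the driver, the floxed allele and the loss of Cx43 cannot be told apart. Cx3cr1-CreER acts in cells that express Cx3cr1, which include microglia but also other macrophages and monocytes, and the CD45 antibody binds blood leukocytes as well as microglia. The labels do not say that the libraries of a group came from separate animals, so p-values measure the spread between these libraries, which may be technical.

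As background, cells build cholesterol from acetyl-CoA through the mevalonate pathway, and the genes of its enzymes are switched on together by SREBP2 when sterol in the endoplasmic reticulum is low. When sterol is plentiful, oxysterols and sterol intermediates activate the liver X receptors (LXR), which switch on the exporters Abca1 and Abcg1. Surplus cholesterol is esterified and stored in lipid droplets together with triglyceride. In the adult brain, microglia take up lipid from myelin and cell debris, pass it through lysosomes, and export it or store it in droplets.

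Promoter sequence was read for 29 of the 37 genes from RefSeq windows of GRCm38.p6 that run from 250 bases before to 50 bases after a start. The 6 shown are those of Cyp51 and Msmo1, whose log2 rises in APP/PS1 were the largest of the sterol enzymes, of Hmgcs1, which holds the sterol regulatory element letters, and of the 3 genes that hold an LXR repeat. Each is the 250 bases before the start, 5′ to 3′ on the gene's strand. Hmgcs1 is at chr13:119690101-119690350 on the plus strand. The minus-strand windows are chr5:4104698-4104947 for Cyp51, chr8:64733579-64733828 for Msmo1, chr4:53159896-53160145 for Abca1, chr11:120824548-120824797 for Fasn and chr11:60210472-60210721 for Srebf1. Capitals mark 3 motifs on either strand: the sterol regulatory element letters TCACNCCAC, the NF-Y box CCAAT, and an LXR direct repeat spelled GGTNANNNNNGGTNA. Where 2 marked motifs overlap, as the last 2 NF-Y boxes of Fasn do, they form a single run of capitals.
Hmgcs1: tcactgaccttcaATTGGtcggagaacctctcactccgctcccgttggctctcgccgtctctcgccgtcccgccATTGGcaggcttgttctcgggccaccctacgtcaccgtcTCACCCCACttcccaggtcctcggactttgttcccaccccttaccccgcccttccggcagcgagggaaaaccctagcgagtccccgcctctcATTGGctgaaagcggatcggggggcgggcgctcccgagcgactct
Cyp51: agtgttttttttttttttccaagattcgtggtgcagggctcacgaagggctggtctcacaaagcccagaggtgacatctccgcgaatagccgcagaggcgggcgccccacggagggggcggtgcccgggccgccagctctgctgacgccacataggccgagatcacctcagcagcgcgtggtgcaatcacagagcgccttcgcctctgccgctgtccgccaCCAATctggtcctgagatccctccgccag
Msmo1: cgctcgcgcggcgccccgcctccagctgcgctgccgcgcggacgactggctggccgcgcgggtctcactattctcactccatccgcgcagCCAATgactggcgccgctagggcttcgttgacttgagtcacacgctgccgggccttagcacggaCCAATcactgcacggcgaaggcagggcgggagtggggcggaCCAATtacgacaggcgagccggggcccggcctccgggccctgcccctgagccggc
Abca1: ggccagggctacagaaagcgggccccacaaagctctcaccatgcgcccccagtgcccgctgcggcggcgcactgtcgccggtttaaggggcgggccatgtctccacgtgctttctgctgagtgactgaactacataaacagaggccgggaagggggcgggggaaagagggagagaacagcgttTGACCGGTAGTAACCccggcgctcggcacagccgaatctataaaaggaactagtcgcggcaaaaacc
Fasn: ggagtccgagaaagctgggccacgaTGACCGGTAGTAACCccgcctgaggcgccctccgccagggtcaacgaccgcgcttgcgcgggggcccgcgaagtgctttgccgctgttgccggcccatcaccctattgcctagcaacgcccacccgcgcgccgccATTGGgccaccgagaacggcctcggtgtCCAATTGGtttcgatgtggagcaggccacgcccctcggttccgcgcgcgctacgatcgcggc
Srebf1: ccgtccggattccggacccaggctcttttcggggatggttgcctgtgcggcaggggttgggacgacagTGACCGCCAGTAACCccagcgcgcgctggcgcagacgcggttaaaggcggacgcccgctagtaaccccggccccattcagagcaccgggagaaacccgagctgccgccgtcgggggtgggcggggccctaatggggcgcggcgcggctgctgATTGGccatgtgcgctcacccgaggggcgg
At least 1 NF-Y box lay in a window of 13 of the 13 sterol enzymes with a window (100%), against 42.8% of the tested genes with a window. The sterol regulatory element letters were found in 1 of those 13 enzymes, Hmgcs1, beginning at -137 from the start, and in 1.36% of tested genes. The LXR repeat was found in 3 of the 29 genes (10.3%) and in 0.581% of tested genes. It began at -67 in Abca1, at -225 in Fasn and at -182 in Srebf1. Read on its own strand, it is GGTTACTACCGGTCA in Abca1 and in Fasn and GGTTACTGGCGGTCA in Srebf1. These matches describe letters in the windows and nothing about binding. No promoter was read for Fdps, Fdft1, Sqle, Scd1, Scd2, Abcg1, Npc1 and Fabp5.

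Library totals ran from 18907681 to 19565354 estimated counts, and levels are given as CPM, counts scaled to library size after trimmed-mean (TMM) normalisation, as mean ± SD with n = 3. Gja1 was at 33.6 ± 1.77 CPM for WT, 39.7 ± 2.72 for APP/PS1 and 26.9 ± 1.42 for the knockout, a log2 change of -0.56 in the knockout against APP/PS1 (SE 0.06, edgeR adjusted p 7.95e-09). Gja1 is also an astrocyte gene, and the summed level of 12 astrocyte markers was 819.8 CPM for WT, 974 for APP/PS1 and 775 for the knockout. Cx3cr1, the locus that carries the Cre driver, was at 2231 ± 13.6 CPM in APP/PS1 and 1214 ± 25.0 in the knockout. The Y-linked Ddx3y had 4137 to 4538 counts in each WT and APP/PS1 library and 0, 1 and 2 in the knockout libraries, so the sex of the cells and the knockout genotype cannot be told apart. The microglial marker sum over 10 genes ran from 19754 to 20111 CPM for WT, from 23895 to 24274 for APP/PS1 and from 20781 to 21050.1 for the knockout. The 12 neutrophil and monocyte markers summed to 3149 to 3188 CPM for WT, 953 to 979 for APP/PS1 and 9185 to 9402 for the knockout, with all 12 higher in the knockout than in APP/PS1. The sum of 15 early response genes of cell dissociation was 27034 ± 739.7 CPM for WT, 22132 ± 588 for APP/PS1 and 22931 ± 577 for the knockout. The 7 erythroid markers summed to 1221 CPM for WT, 262 for APP/PS1 and 102 for the knockout, and the 6 border macrophage markers to 533, 386 and 348. Both sums were highest in WT and lowest in the knockout. Single markers differed: in the knockout against APP/PS1, 2 erythroid markers were called higher and 5 lower. For border macrophages these counts were 1 and 5, beside 27.3% and 27.7% of all tested genes. In the order WT, APP/PS1 and knockout, the sums of 10 neuron markers were 89.5, 106 and 75.0 CPM, of 10 vessel markers 1040.3, 1046 and 755, of 10 oligodendrocyte markers 2331, 2401 and 2280.5, and of 6 B cell markers 41.2, 20.3 and 28.4. In all 11 marker lists, the 4 Y-linked genes among them, every gene had at least 10 counts in some library. The part of these cells and of dissociation in the values that follow was not tested, and in bulk RNA fewer cells of a type and less RNA per cell cannot be told apart.

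Most of the 37 genes were higher in both amyloid groups than in WT. In APP/PS1 against WT, 27 rose and 5 fell at an edgeR adjusted p under 0.05, against a background of 26.9% of tested genes called higher and 32.0% called lower. Their CPM values did not overlap between the groups in 33 of 37, with 63.5% of all tested genes not overlapping. The median log2 change was 0.54 over the 37 genes and -0.04 over all tested genes. In the knockout against WT, 27 rose and 4 fell, where 24.7% of tested genes were called higher and 23.0% lower. Here 30 of 37 did not overlap against 54.6% of all tested genes, and the median log2 change was 0.62 beside -0.01 over all. These comparisons share the WT libraries.

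The genes divided more evenly between the amyloid groups. In the knockout against APP/PS1, 15 rose and 11 fell, against a background of 27.3% of tested genes higher and 27.7% lower. The groups did not overlap in 30 of the 37, beside 59.7% of all tested genes. The median log2 change was -0.03, and -0.01 over all tested genes. Of the 37 genes, 4 were called with a log2 change of at least 0.5 in size, beside 20.8% of all tested genes: Plin2 was higher, and Ch25h, Fabp3 and Fabp5 were lower.

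**Figure D1:**
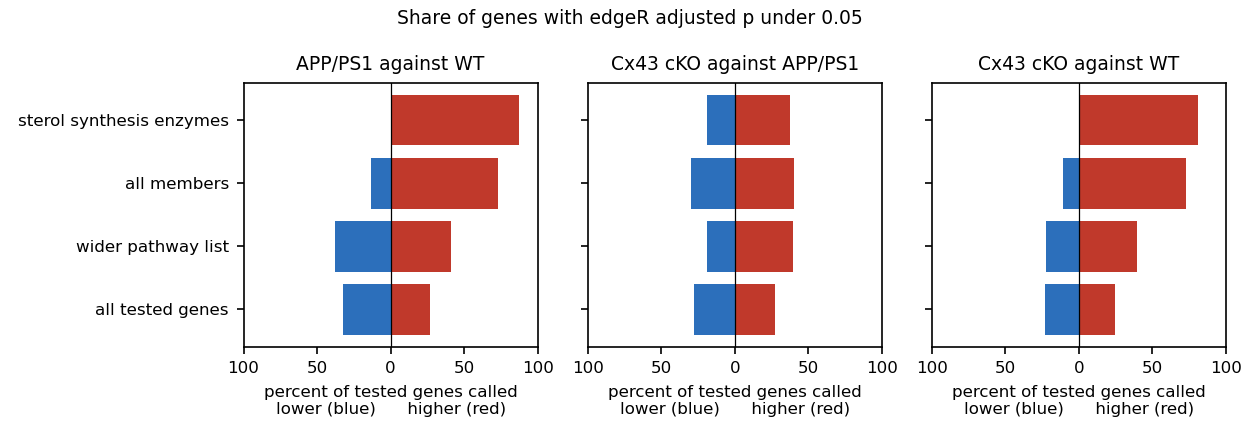
Percent of tested genes called higher (red, right of 0) or lower (blue, left of 0) at an edgeR adjusted p under 0.05 in each comparison, for the 16 sterol enzymes, the 37 members, a wider list of lipid genes and all 14696 tested genes. Red bars of the sterol enzymes and of the members exceed those of all tested genes in both comparisons with WT. For the sterol enzymes and the members, red and blue are closer to each other in the knockout against APP/PS1. This does not hold for the wider list.

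The scale of the values bears on these counts. The median over all tested genes in APP/PS1 against WT moved from -0.04 to -0.17 on library totals alone and to -0.35 on log2(TPM + 1). On the TPM scale 18 of the 37 genes were higher and 13 lower in that comparison, 21 and 7 in the knockout against APP/PS1, and 22 and 9 in the knockout against WT. For single members, the log2 change on TPM minus that on CPM had a median of -0.39 in APP/PS1 against WT (from -0.65 to -0.01), 0.19 in the knockout against APP/PS1 (from 0.09 to 0.22) and -0.20 in the knockout against WT (from -0.45 to 0.20). Across all tested genes, the higher share of called genes went from 45.7% to 29.5% on library totals, 30.2% on FPKM and 14.7% on TPM in APP/PS1 against WT. It went from 51.9% to 30.4%, 32.0% and 19.8% in the knockout against WT, and from 49.6% to 75.3% on TPM in the knockout against APP/PS1. Calls that kept their sign and an adjusted p under 0.05 in every refit, by scale, tool, filter, block or left-out library, numbered 23 of 32, 18 of 26 and 25 of 31 in the order APP/PS1 against WT, the knockout against APP/PS1 and the knockout against WT. Of these, 22, 18 and 25 also had an adjusted p under 0.01, and 17, 3 and 21 a change of at least 1.5-fold.

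**Figure D2:**
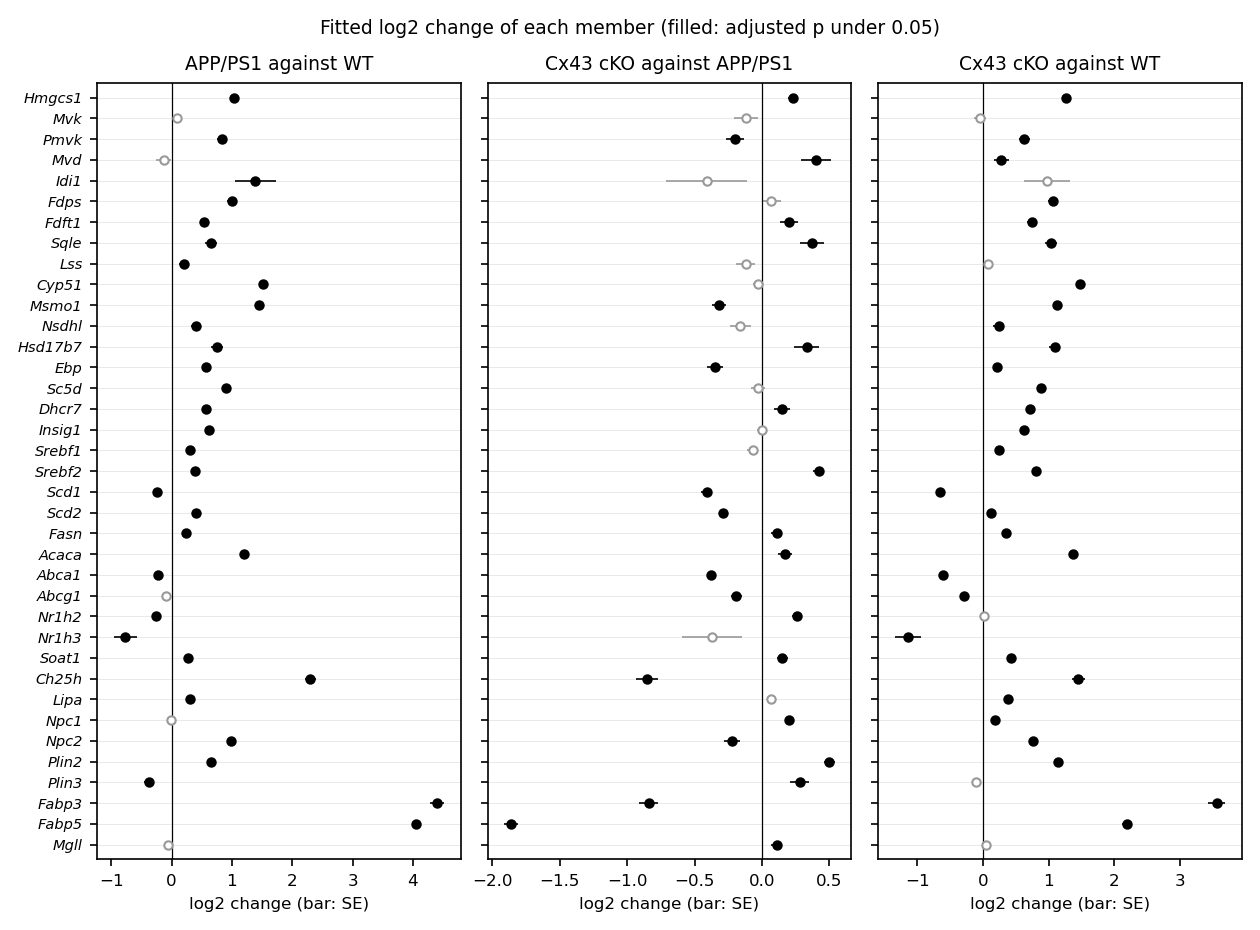
Fitted log2 change (point) with its SE (bar) of each of the 37 members in the 3 comparisons, on a separate horizontal scale per panel. Filled points passed an edgeR adjusted p under 0.05. Fabp3 at 4.40 and Fabp5 at 4.05 lie farthest to the right in APP/PS1 against WT, and Fabp5 at -1.86 farthest to the left in the knockout against APP/PS1.

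Most sterol synthesis enzymes rose in APP/PS1 and their sum stayed near that level in the knockout. Their summed level was 256, 262 and 266 CPM in the WT libraries, 484, 469 and 487 in APP/PS1 and 488, 483 and 479.6 in the knockout. Of the 16, 14 rose and 0 fell in APP/PS1 against WT, with a median log2 change of 0.71 and a range from -0.13 to 1.51. Over all tested genes 26.9% were higher and 32.0% lower. On FPKM this median of the enzymes was 0.41 and on TPM 0.26. Against WT the knockout had 13 higher and 0 lower enzymes, with a median of 0.81, beside 24.7% and 23.0% of all tested genes. The count of falls was also 0 at an edgeR unadjusted p under 0.05 and in DESeq2, which called 13 and 12 enzymes higher in these comparisons. On TPM, where the median of all tested genes was -0.35, Mvk at -0.28 and Mvd at -0.48 were called lower in APP/PS1 against WT, and Mvd was also called lower on library totals (-0.26, adjusted p 0.0496). In the knockout against APP/PS1, 6 rose, 3 fell and 7 were not called, where 27.3% and 27.7% of all tested genes rose and fell. All 16 had a log2 change between -0.41 and 0.40, and the median was -0.03. On the TPM scale the median in that comparison was 0.15 for the enzymes and 0.14 for all tested genes.

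The mevalonate steps opened the pathway with unequal changes. Hmgcs1, the synthase that makes HMG-CoA, was at 49.0, 52.3 and 50.3 CPM in the WT libraries, 103, 101 and 107 in those of APP/PS1 and 121, 124 and 119 in the knockouts. Every knockout library was above every APP/PS1 library, and these above every WT library. The log2 changes were 1.03 (SE 0.04, adjusted p 7.94e-18) in APP/PS1 against WT and 0.23 (SE 0.04, adjusted p 7.89e-06) in the knockout against APP/PS1. Mvk, mevalonate kinase, was at 7.94, 8.13 and 8.96 CPM in the WT libraries, 8.14, 9.31 and 9.11 in those of APP/PS1 and 8.53, 7.79 and 8.08 in the knockouts, and its groups overlapped in all 3 comparisons, with no call. Its log2 change in APP/PS1 against WT was 0.09 and turned to -0.28 on the TPM scale, where it was also called lower in the knockout against WT (-0.21). Pmvk, phosphomevalonate kinase, was at 10.3, 12.1 and 11.1 CPM in the WT libraries, 18.6, 20.9 and 20.1 in those of APP/PS1 and 16.2, 18.6 and 17.1 in the knockouts. It was highest in APP/PS1, at 0.83 (SE 0.08, adjusted p 6.54e-10) against WT, and in the knockout it fell by 0.20 on the log2 scale (SE 0.07, adjusted p 0.0235). That fall turned to 0.29 with offsets by gene length and to 0.02 on TPM, and its call was lost on leaving out APP/PS1 library 2 or 3 or knockout library 1 or 3. The call was also lost in DESeq2 (-0.19, adjusted p 0.156), on library totals (-0.17, adjusted p 0.0512) and on FPKM (-0.14, adjusted p 0.0917). With length offsets the rise of Pmvk in APP/PS1 against WT was 0.21. Mvd, the decarboxylase, overlapped between WT and both other groups and was higher in the knockout than in APP/PS1, at 0.40 (SE 0.11, adjusted p 0.00464). Its call in the knockout against WT (log2 change 0.28, SE 0.11, adjusted p 0.0416) was lost without WT library 1 or 3 or knockout library 1 or 2, in DESeq2, and on library totals, FPKM and TPM.

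From isoprenoids to lanosterol the enzymes mostly rose. Idi1, the isomerase of isopentenyl diphosphate, was at 4.44, 5.71 and 3.13 CPM in the WT libraries, 13.7, 11.8 and 9.38 in those of APP/PS1 and 9.06, 5.54 and 11.6 in the knockouts. It had the widest spread of the enzymes relative to its level, and its knockout libraries overlapped both other groups. The rise in APP/PS1 against WT was 1.39 (SE 0.34, adjusted p 0.0114), and the value in the knockout against WT of 0.98 (SE 0.35, adjusted p 0.0619) passed the threshold on leaving out knockout library 2 (1.22, adjusted p 0.00726), in DESeq2, and on FPKM and TPM. Fdps, which makes farnesyl diphosphate, rose by 1.00 (SE 0.08, adjusted p 1.58e-10) in APP/PS1 and by 1.07 (SE 0.08, adjusted p 6.02e-11) in the knockout against WT. Between the amyloid groups its change of 0.07 was not called, but was with length offsets (0.22, adjusted p 0.0173) and on TPM (0.26, adjusted p 0.0196). Fdft1, squalene synthase, was at 14.0, 15.0 and 17.2 CPM in the WT libraries, 21.8, 21.5 and 23.9 in those of APP/PS1 and 26.0, 26.2 and 25.0 in the knockouts, and Sqle, squalene epoxidase, at 7.69, 7.98 and 8.57 CPM in the WT libraries, 14.3, 11.3 and 12.8 in those of APP/PS1 and 18.4, 15.5 and 15.5 in the knockouts. Both were lowest in WT and highest in the knockout with no overlap between any groups. Sqle rose by 0.66 (SE 0.10, adjusted p 2.1e-06) in APP/PS1 against WT and by 0.37 (SE 0.09, adjusted p 0.000956) in the knockout against APP/PS1. Fdft1 rose by 0.54 and 0.20 in these comparisons, where the former was not called on TPM (0.16, adjusted p 0.0578) and the latter not without APP/PS1 library 2 (0.17, adjusted p 0.0671) or in DESeq2. Length offsets gave the latter as 0.14, at an adjusted p of 0.0713 alone and 0.0336 with the replicate block. Lss, lanosterol synthase, was at 13.4, 13.2 and 12.9 CPM in the WT libraries, 14.6, 15.2 and 15.5 in those of APP/PS1 and 13.2, 14.3 and 14.2 in the knockouts. APP/PS1 was above WT, and the knockout overlapped WT. The rise in APP/PS1 against WT was 0.20 (SE 0.07, adjusted p 0.0185), which turned to -0.11 on TPM, was not called on library totals, FPKM or in DESeq2, and missed the threshold at 0.18 without WT library 3 or without APP/PS1 library 3 (adjusted p 0.0593 and 0.0645).

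Past lanosterol came the enzymes with the largest rises. Cyp51, lanosterol demethylase and the gene whose promoter is printed above, was at 18.9, 19.2 and 20.3 CPM in the WT libraries, 56.3, 54.8 and 54.7 in those of APP/PS1 and 53.7, 55.3 and 53.5 in the knockouts. Both amyloid groups stood well above WT and overlapped each other. Its log2 change was 1.51 (SE 0.05, adjusted p 2.33e-19) in APP/PS1 against WT, a 2.84-fold rise, and 1.48 (SE 0.05, adjusted p 6e-19) in the knockout against WT. Between the amyloid groups it was -0.03 (SE 0.04, adjusted p 0.59), and 0.16 on TPM. Msmo1, the methylsterol oxidase that follows, was at 22.6, 20.0 and 22.2 CPM in the WT libraries, 61.8, 56.0 and 59.2 in those of APP/PS1 and 48.6, 45.3 and 47.9 in the knockouts. It was lowest in WT and highest in APP/PS1 with no overlap. The rise in APP/PS1 against WT was 1.45 (SE 0.06, adjusted p 5.3e-18) and the fall in the knockout against APP/PS1 -0.32 (SE 0.05, adjusted p 4.75e-06), a call lost on TPM (-0.12, adjusted p 0.0747).

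The last steps rose by less than Cyp51 and Msmo1 in APP/PS1. Hsd17b7, a sterol ketoreductase, was at 6.09, 5.47 and 5.49 CPM in the WT libraries, 8.68, 9.96 and 10.2 in those of APP/PS1 and 12.4, 12.2 and 11.6 in the knockouts. It increased from WT to APP/PS1 by 0.76 (SE 0.10, adjusted p 2.51e-07) and was higher again in the knockout by 0.33 (SE 0.09, adjusted p 0.00215). Ebp, a sterol isomerase, was at 25.9, 24.9 and 28.5 CPM in the WT libraries, 40.5, 37.1 and 39.7 in those of APP/PS1 and 31.4, 30.2 and 30.3 in the knockouts. Ebp was highest in APP/PS1, and its fall in the knockout of -0.35 (SE 0.06, adjusted p 5.24e-06) left it above WT by 0.21 (SE 0.06, adjusted p 0.0032), a call lost on library totals, FPKM and TPM. Sc5d, a sterol desaturase, was at 24.8, 23.5 and 25.3 CPM in the WT libraries, 46.8, 42.4 and 49.4 in those of APP/PS1 and 45.8, 44.6 and 45.4 in the knockouts. Both amyloid groups were above WT and overlapped each other. Its log2 change was 0.91 (SE 0.06, adjusted p 1.53e-13) in APP/PS1 against WT, and -0.03 in the knockout against APP/PS1, which was 0.15 on TPM. Dhcr7, which makes cholesterol from its last precursor, was at 15.4, 17.1 and 17.1 CPM in the WT libraries, 23.2, 25.3 and 25.3 in those of APP/PS1 and 27.1, 26.9 and 27.9 in the knockouts, and its groups did not overlap. It rose by 0.57 (SE 0.06, adjusted p 1.61e-08) in APP/PS1 against WT and by 0.15 (SE 0.06, adjusted p 0.0327) in the knockout against APP/PS1, and the latter was not called without APP/PS1 library 1 (0.11, adjusted p 0.156) or knockout library 3 (0.14, adjusted p 0.1) or in DESeq2. With length offsets it was 0.13, at an adjusted p of 0.0614 alone and 0.0318 with the replicate block. Nsdhl, another step of demethylation, rose by 0.40 (SE 0.08, adjusted p 8.43e-05) in APP/PS1 and by 0.24 (SE 0.08, adjusted p 0.0141) in the knockout against WT, the latter not called without WT library 1 (adjusted p 0.0735) or knockout library 3 (0.0821). On TPM these Nsdhl values were 0.01 and 0.04, neither called, and the knockout call was also lost on library totals (0.13, adjusted p 0.158), on FPKM and in DESeq2. Nsdhl and Ebp lie on the X chromosome, and Y-linked counts differed between the knockout and the other groups, as given above.

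**Figure D3:**
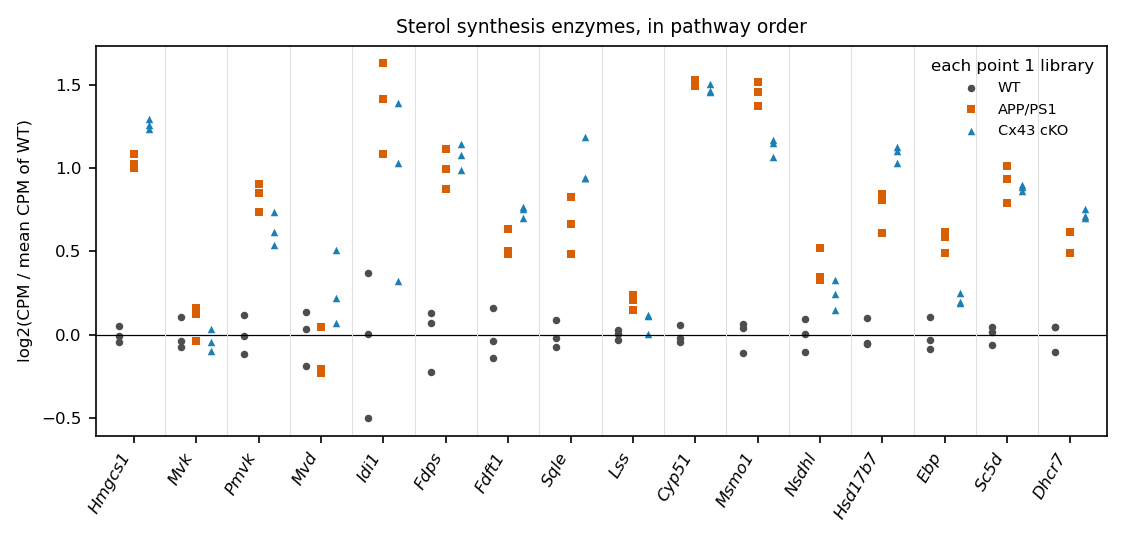
Level of each of the 16 sterol synthesis enzymes in each library as log2 of its CPM over the mean CPM of WT, with enzymes in pathway order from left to right and 1 point per library. The APP/PS1 squares and knockout triangles lie above the WT circles for most enzymes. By group mean Cyp51 and Msmo1 are highest in APP/PS1 and Cyp51 and Hmgcs1 in the knockout, with little spread, while Mvk, Mvd and Lss stay near the WT level and Idi1 is widely spread.

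Per length of transcript, the enzymes differed widely in level. In FPKM, the deposited unit that divides by gene length and library size, which allow levels to be compared between genes, Ebp at 16.5 ± 1.14 and Hmgcs1 at 15.6 ± 0.506 led the enzymes in WT. Hsd17b7 at 1.33 ± 0.0924 and Idi1 at 1.67 ± 0.485 were lowest. In APP/PS1 the order changed, with Msmo1 at 31.6 ± 1.62, Hmgcs1 at 29.0 ± 0.852 and Ebp at 22.2 ± 1.01. Over all 16, FPKM summed to 120.1 ± 2.09 in WT, 198 ± 3.65 in APP/PS1 and 197 ± 2.65 in the knockout.

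All 3 regulators of sterol synthesis rose in both amyloid groups against WT on the CPM scale, although on TPM Srebf1 and Srebf2 did not rise in APP/PS1 and Srebf1 was not called in the knockout. Srebf2, which encodes the SREBP2 factor of the sterol genes, was at 71.8, 71.9 and 75.2 CPM in the WT libraries, 95.6, 97.1 and 94.6 in those of APP/PS1 and 129.5, 126 and 129 in the knockouts. The groups were stepwise apart, with the knockout highest and no overlap. Srebf2 rose by 0.39 (SE 0.04, adjusted p 8.4e-10) in APP/PS1 against WT and by 0.42 (SE 0.04, adjusted p 1.01e-10) in the knockout against APP/PS1, while on TPM the former was 0.00. Insig1, which holds SREBP in the endoplasmic reticulum and is itself a target of SREBP, was at 79.3, 79.7 and 75.7 CPM in the WT libraries, 124, 116 and 121 in those of APP/PS1 and 126, 118 and 118 in the knockouts. The amyloid groups overlapped each other and stood above WT, at 0.62 (SE 0.04, adjusted p 2.72e-13) for APP/PS1 and 0.00 (SE 0.04, adjusted p 0.946) between the amyloid groups, which was 0.20 on TPM (adjusted p 0.0014). Srebf1, the factor of fatty acid synthesis genes and a target of LXR, was at 61.6, 60.4 and 61.1 CPM in the WT libraries, 74.0, 78.0 and 75.2 in those of APP/PS1 and 72.3, 74.1 and 70.1 in the knockouts. It rose by 0.31 (SE 0.04, adjusted p 2.46e-07) in APP/PS1 against WT, and the change in the knockout against APP/PS1 was -0.07 with no call. On TPM these Srebf1 values were -0.08 and 0.12, the opposite signs, and with length offsets the latter was -0.12 (adjusted p 0.0115).

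Among the fatty acid synthesis genes, Acaca, Fasn and Scd2 rose against WT in both amyloid groups and Scd1 fell, although on TPM Fasn was lower and Scd2 not called in APP/PS1, and Scd2 was lower in the knockout. Acaca, the carboxylase that makes malonyl-CoA, was at 26.4, 22.1 and 24.4 CPM in the WT libraries, 56.1, 55.2 and 56.4 in those of APP/PS1 and 60.3, 63.4 and 65.2 in the knockouts. All amyloid libraries were above all WT libraries, by 1.20 (SE 0.06, adjusted p 2.97e-16) in APP/PS1, and the knockout was above APP/PS1 by 0.17 (SE 0.05, adjusted p 0.00408). Fasn, fatty acid synthase, was at 61.2, 62.5 and 62.9 CPM in the WT libraries, 72.8, 74.4 and 73.3 in those of APP/PS1 and 77.0, 82.4 and 78.9 in the knockouts. It was in the same order as Acaca with smaller steps, 0.24 (SE 0.04, adjusted p 1.16e-05) in APP/PS1 against WT and 0.11 (SE 0.04, adjusted p 0.0175) in the knockout against APP/PS1. The former was -0.14 on TPM and not called on FPKM, and the latter was not called without APP/PS1 library 3 (0.11, adjusted p 0.0512) or knockout library 2 (0.08, adjusted p 0.107) or in DESeq2. The latter was 0.09 with length offsets, at an adjusted p of 0.0805 alone and 0.016 with the replicate block.

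The stearoyl-CoA desaturases, which make monounsaturated fatty acids, moved apart. Scd2, the main brain form, was at 498, 479 and 485 CPM in the WT libraries, 654, 641 and 641 in those of APP/PS1 and 543, 519.8 and 523 in the knockouts. It was highest in APP/PS1, with the knockout between and no overlap. Scd2 rose by 0.40 (SE 0.03, adjusted p 1.5e-12) in APP/PS1 against WT and fell by 0.29 on the log2 scale (SE 0.03, adjusted p 1.58e-09) in the knockout against APP/PS1, and it was above WT in the knockout (log2 change 0.12, SE 0.03, adjusted p 0.00114). On TPM the rise of Scd2 in APP/PS1 was 0.01 (adjusted p 0.717) and the value in the knockout against WT -0.08, and the latter was 0.01 with no call on library totals and on FPKM. Scd1 was at 80.5, 80.9 and 78.5 CPM in the WT libraries, 66.5, 68.3 and 68.1 in those of APP/PS1 and 51.3, 52.9 and 48.5 in the knockouts. It fell from group to group with no overlap, by 0.24 on the log2 scale (SE 0.04, adjusted p 1.2e-05) in APP/PS1 against WT and by 0.41 on the log2 scale (SE 0.04, adjusted p 7.14e-09) in the knockout against APP/PS1. The ratio of Scd2 to Scd1 in FPKM was 5.40 ± 0.133 in WT, 8.45 ± 0.219 in APP/PS1 and 9.21 ± 0.444 in the knockout.

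The 4 genes of cholesterol efflux and its control went the other way from the sterol enzymes. Of these 4, 3 fell in each comparison with WT and 0 rose, beside 32.0% and 23.0% of all tested genes called lower. Those called lower were Abca1 and Nr1h3 in both comparisons, Nr1h2 in APP/PS1 and Abcg1 in the knockout. DESeq2 gave the same counts, and an edgeR unadjusted p under 0.05 gave 4 lower in APP/PS1, 3 lower in the knockout and 0 higher in either. The erythroid and border macrophage sums given above were also highest in WT and lowest in the knockout, as were Abca1, Abcg1, Nr1h3 and Scd1, and their part in these levels was not tested. Abca1, the exporter that loads cholesterol onto lipid-poor apolipoproteins, was at 499, 477 and 497 CPM in the WT libraries, 422, 411 and 423 in those of APP/PS1 and 326, 315 and 325 in the knockouts. Every knockout library was below every APP/PS1 library, and these below every WT library. It fell by 0.23 on the log2 scale (SE 0.03, adjusted p 1.3e-07) in APP/PS1 against WT and by 0.38 on the log2 scale (SE 0.03, adjusted p 1.83e-11) in the knockout against APP/PS1, which left the knockout 1.52-fold below WT. Abcg1, the exporter to lipoprotein particles, was at 105, 106 and 105 CPM in the WT libraries, 94.4, 99.3 and 103 in those of APP/PS1 and 86.4, 89.1 and 84.7 in the knockouts. Its groups were in the same order as those of Abca1, with no overlap and closer together. The change in APP/PS1 against WT was -0.09 (SE 0.04, adjusted p 0.0543), which missed the threshold and was called with the replicate number as a paired block (-0.09, adjusted p 0.00797) and without APP/PS1 library 3 (-0.12, adjusted p 0.0199). It was also called with a minimum of 10 counts (-0.09, adjusted p 0.0459), and was larger on library totals (-0.22, adjusted p 9.52e-06), FPKM (-0.21, adjusted p 0.000576) and TPM (-0.47, adjusted p 8.97e-07). Abcg1 fell by 0.19 on the log2 scale (SE 0.04, adjusted p 0.00016) in the knockout against APP/PS1, which was 0.00 on TPM. The FPKM ratio of Abca1 to Abcg1 was 2.64 ± 0.0769 in WT, 2.40 ± 0.117 in APP/PS1 and 2.10 ± 0.088 in the knockout.

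The LXR genes differed in level and in pattern. Nr1h3, which encodes LXR alpha, was at 3.15, 2.36 and 3.18 CPM in the WT libraries, 1.86, 1.56 and 1.67 in those of APP/PS1 and 1.43, 1.20 and 1.30 in the knockouts. It was low everywhere and highest in WT with no overlap. Nr1h3 fell by 0.77 on the log2 scale (SE 0.19, adjusted p 0.000992) in APP/PS1 and by 1.14 on the log2 scale (SE 0.20, adjusted p 2.48e-05) in the knockout against WT, and the knockout against APP/PS1 (log2 change -0.37, SE 0.22, adjusted p 0.156) was not called, except on FPKM (-0.20, adjusted p 0.0476). Nr1h2, which encodes LXR beta, was at 87.0, 89.0 and 89.5 CPM in the WT libraries, 71.2, 75.2 and 77.2 in those of APP/PS1 and 84.7, 94.5 and 88.1 in the knockouts. APP/PS1 was lowest, and WT and the knockout overlapped. It fell by 0.25 on the log2 scale (SE 0.04, adjusted p 2e-05) in APP/PS1 against WT and rose by 0.26 (SE 0.04, adjusted p 1.45e-05) in the knockout against APP/PS1, and its log2 change in the knockout against WT of 0.01 was -0.10 on library totals and -0.18 on TPM. In FPKM, Nr1h2 at 45.4 ± 0.741 was far above Nr1h3 at 1.77 ± 0.262 in WT. The LXR repeats printed above lay in genes that did not move together: Abca1 fell in APP/PS1 against WT while Fasn and Srebf1 rose, although on TPM neither of these rose.

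**Figure D4:**
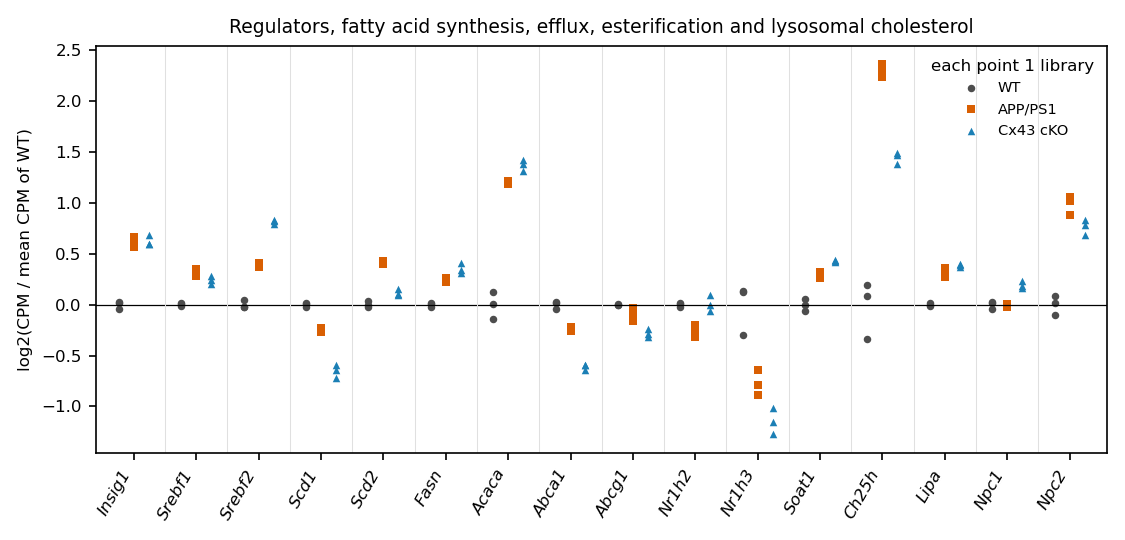
Level of the 16 members of 5 other classes in each library as log2 of CPM over the mean CPM of WT, 1 point per library. By group mean Ch25h, Acaca and Npc2 stand highest above WT in APP/PS1 and Ch25h, Acaca and Srebf2 in the knockout, and Scd1, Abca1, Abcg1 and Nr1h3 lie below WT in both.

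Ch25h and Soat1 rose in both amyloid groups against WT, although on TPM Soat1 was lower in APP/PS1. Ch25h, which makes 25-hydroxycholesterol, an oxysterol of activated macrophages, was at 4.34, 5.81 and 6.27 CPM in the WT libraries, 28.2, 26.8 and 25.8 in those of APP/PS1 and 15.4, 14.3 and 15.2 in the knockouts. The APP/PS1 libraries were highest, the knockout lay between, and no groups overlapped. The gene (ID 12642) lies at chr19:34473783-34475148 of GRCm38.p6, next to Lipa at chr19:34492316-34527474. Ch25h rose 4.91-fold in APP/PS1 against WT (log2 change 2.30, SE 0.09, adjusted p 7.34e-18), and in the knockout it was 1.80-fold lower than in APP/PS1 (log2 change -0.85, SE 0.08, adjusted p 2.91e-10) and 2.73-fold higher than in WT. Soat1, which esterifies cholesterol for storage, was at 69.9, 66.9 and 72.7 CPM in the WT libraries, 83.7, 83.6 and 87.2 in those of APP/PS1 and 94.9, 93.9 and 93.1 in the knockouts. It rose in small steps from WT to APP/PS1 (log2 change 0.28, SE 0.04, adjusted p 1.02e-06) and to the knockout (log2 change 0.15, SE 0.04, adjusted p 0.00226) with no overlap, and the former was -0.11 on TPM.

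Of the 3 lysosomal genes, 2 rose in APP/PS1 and 3 in the knockout against WT on the CPM scale, although on TPM Lipa was lower in APP/PS1 and Npc1 did not rise in the knockout. Npc2, the soluble carrier of cholesterol in the lysosome, was at 575, 623 and 654 CPM in the WT libraries, 1139, 1248 and 1284 in those of APP/PS1 and 994, 1062 and 1101 in the knockouts. All amyloid libraries were above WT, and those of the knockout lay just below those of APP/PS1 without overlap. Npc2 rose by 0.99 (SE 0.06, adjusted p 2.21e-06) in APP/PS1 against WT. The knockout was below APP/PS1, where Npc2 fell by 0.22 on the log2 scale (SE 0.06, adjusted p 0.0195), a call lost on TPM (-0.02) and without APP/PS1 library 2 (adjusted p 0.06), knockout library 1 (0.0543) or knockout library 2 (0.0508). Its FPKM of 203 ± 12.7 in WT and 366 ± 21.6 in APP/PS1 was the highest of the 37 genes in each of these groups. Lipa, the lysosomal acid lipase that frees cholesterol from its esters, was at 94.2, 92.6 and 93.4 CPM in the WT libraries, 115, 113 and 119.6 in those of APP/PS1 and 121, 122 and 123 in the knockouts. Its groups did not overlap. Lipa rose by 0.31 (SE 0.03, adjusted p 1.77e-08) in APP/PS1 against WT, which was -0.08 on TPM, and was at 0.07 (SE 0.03, adjusted p 0.0829) in the knockout against APP/PS1, not called but for library totals (0.10), FPKM (0.10), TPM (0.26) and the replicate block (0.07). Npc1, the membrane partner of Npc2, was at 154, 147 and 153 CPM in the WT libraries, 149, 152 and 151 in those of APP/PS1 and 172, 169 and 178 in the knockouts. WT and APP/PS1 overlapped, and the knockout was above both. The log2 change in APP/PS1 against WT was -0.01 with no call. It was called lower on library totals (-0.15, adjusted p 0.000369), FPKM (-0.14, adjusted p 0.00335) and TPM (-0.39, adjusted p 9.57e-07) and higher with length offsets (0.10, adjusted p 0.0157). In the knockout Npc1 rose by 0.20 (SE 0.03, adjusted p 1.07e-05) against APP/PS1 and by 0.19 (SE 0.03, adjusted p 2.25e-05) against WT, where TPM gave -0.01 and the call was lost on FPKM (0.08, adjusted p 0.0636).

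Lipid droplet and lipid handling genes held the largest changes of all 37. Fabp3, a fatty acid binding protein best known from heart muscle, was at 1.20, 1.43 and 1.03 CPM in the WT libraries, 26.0, 26.5 and 24.8 in those of APP/PS1 and 12.6, 15.5 and 15.1 in the knockouts. It was near 1 CPM in WT, and the groups did not overlap. Fabp3 rose 21.0-fold in APP/PS1 against WT (log2 change 4.40, SE 0.12, adjusted p 2.8e-21) and 11.8-fold in the knockout against WT (log2 change 3.56, SE 0.13, adjusted p 5.05e-18). In the knockout it was 1.79-fold lower than in APP/PS1 (log2 change -0.84, SE 0.07, adjusted p 3.29e-10), and once counts were offset by gene length the log2 change was -0.35 here and 3.77 in APP/PS1 against WT. Fabp5, a fatty acid binding protein of macrophages and skin, was at 8.69, 7.34 and 8.42 CPM in the WT libraries, 139, 138 and 129 in those of APP/PS1 and 37.6, 37.6 and 36.6 in the knockouts. The order of groups was that of Fabp3, with a wider step between the amyloid groups. Fabp5 rose 16.6-fold in APP/PS1 against WT (log2 change 4.05, SE 0.06, adjusted p 1.86e-27) and 4.57-fold in the knockout against WT (log2 change 2.19, SE 0.07, adjusted p 7.72e-20). In the knockout it was 3.64-fold lower than in APP/PS1 (log2 change -1.86, SE 0.05, adjusted p 2.16e-22), and with length offsets the log2 changes were -1.37 here and 3.43 in APP/PS1 against WT. Both are short genes, with lengths of 631 and 904 bases implied by the ratio of count to FPKM. By RefSeq on GRCm38.p6, Fabp3 (gene ID 14077) lies at chr4:130308738-130315463 and Fabp5 (16592) at chr3:10012585-10016610. The FPKM ratio of Fabp5 to Fabp3 was 4.78 ± 1.14 in WT, 3.67 ± 0.0567 in APP/PS1 and 1.82 ± 0.229 in the knockout.

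Plin2, the coat protein of lipid droplets in macrophages, was at 53.4, 56.8 and 53.0 CPM in the WT libraries, 85.8, 82.3 and 87.8 in those of APP/PS1 and 121, 119.5 and 122 in the knockouts. Its gene (ID 11520) lies at chr4:86626910-86670217 of GRCm38.p6. It was highest in the knockout, and no groups overlapped. It rose by 0.65 (SE 0.04, adjusted p 2.58e-13) in APP/PS1 against WT and by 0.50 (SE 0.04, adjusted p 1.35e-11) in the knockout against APP/PS1, to 2.22-fold above WT. Plin3, a coat protein of small droplets, was at 19.6, 23.3 and 21.4 CPM in the WT libraries, 17.3, 15.8 and 16.2 in those of APP/PS1 and 20.0, 21.1 and 18.9 in the knockouts. APP/PS1 was lowest, and WT and the knockout overlapped. Plin3 fell by 0.38 on the log2 scale (SE 0.07, adjusted p 4.98e-05) in APP/PS1 against WT and rose by 0.28 (SE 0.07, adjusted p 0.00193) in the knockout against APP/PS1. Against WT it was called lower in the knockout on library totals (-0.21), FPKM (-0.19) and TPM (-0.28). Mgll, the lipase of monoacylglycerol, was at 72.3, 76.0 and 69.6 CPM in the WT libraries, 69.6, 70.9 and 67.7 in those of APP/PS1 and 71.8, 77.1 and 75.2 in the knockouts. Its range was narrow, and WT overlapped both other groups. On the CPM scale Mgll was called only in the knockout against APP/PS1 (log2 change 0.11, SE 0.04, adjusted p 0.0393), a call lost on leaving out APP/PS1 library 1 or 3 or knockout library 2 or 3, in DESeq2 and with length offsets. In APP/PS1 against WT it was called lower on library totals (-0.20), FPKM (-0.20) and TPM (-0.45), and its log2 change of 0.04 in the knockout against WT was -0.16 on TPM. The FPKM ratio of Plin2 to Plin3 was 2.99 ± 0.182 in WT, 6.09 ± 0.275 in APP/PS1 and 7.09 ± 0.510 in the knockout.

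**Figure D5:**
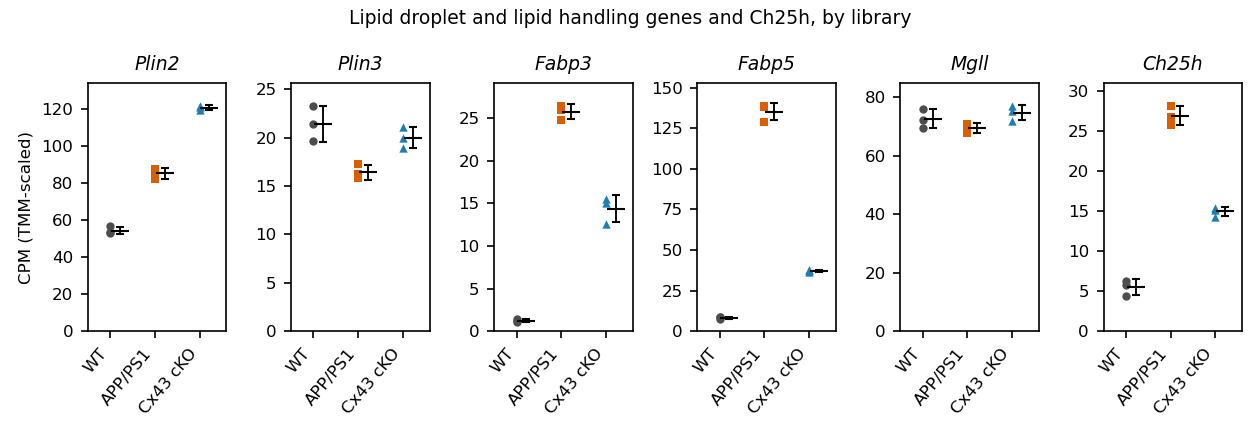
CPM of the 5 lipid droplet and lipid handling genes and Ch25h in each library (points), with the mean and SD of each group of 3 as a bar at its right, on axes that start at 0 and differ between panels. Fabp3, Fabp5 and Ch25h peak in APP/PS1, Plin2 is highest in the knockout, Plin3 is lowest in APP/PS1 and Mgll is nearly level.

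A wider list holds related lipid genes that are not among the 37. Of its 71 measured genes, 63 were tested, and in APP/PS1 against WT 26 rose and 24 fell, with a median log2 change of 0.02, where 26.9% of all tested genes were higher and 32.0% lower. Between the amyloid groups 25 rose and 12 fell in the knockout (27.3% and 27.7% of all tested), with a median of 0.09. In the knockout against WT 25 rose and 14 fell (24.7% and 23.0% of all tested), with a median of 0.05. The 5 with the largest called changes were Lpl, G0s2, Fabp4, Nceh1 and Dgat1. Lpl, the lipase that frees fatty acids from lipoproteins, was at 21.4 ± 1.24 CPM for WT, 365 ± 1.11 for APP/PS1 and 474 ± 12.7 for the knockout. It rose 17.0-fold in APP/PS1 against WT and 1.30-fold in the knockout against APP/PS1. Nceh1, a hydrolase of cholesterol esters, was at 19.1 ± 1.38, 57.6 ± 2.29 and 71.1 ± 3.51 CPM in the same order and rose in each comparison. Lpl and Nceh1 were both lowest in WT and highest in the knockout, the order seen for Plin2.

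G0s2 and Dgat1 were lowest in APP/PS1. G0s2, an inhibitor of triglyceride lipolysis that neutrophils also express, was at 12.1 ± 0.506 CPM for WT, 3.43 ± 0.436 for APP/PS1 and 19.0 ± 0.964 for the knockout. Dgat1, which makes triglyceride, was at 45.4 ± 2.51, 19.2 ± 1.18 and 67.1 ± 0.295 CPM in that order. G0s2 rose 5.54-fold and Dgat1 3.49-fold in the knockout against APP/PS1. The summed neutrophil and monocyte markers given above had the same order of groups, and their part in these levels was not tested. Fabp4, the adipocyte form of the binding proteins, was highest in WT at 1.56 ± 0.241 CPM and fell to 0.324 ± 0.193 in APP/PS1, the opposite direction from Fabp3 and Fabp5. Both Fabp4 levels were low, so its fall rests on few counts.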

How the data were processed

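Per the labels' protocols, cells panned with CD45 antibody gave poly-A RNA that was read from a single end on the DNBSEQ platform. The submitters' processing notes name HISAT, Bowtie2, DESeq2 and the build GRCm38.p6, with no versions or roles. Per the file headers, each library has 4 columns that the authors deposited: estimated counts, FPKM, TPM and normalised counts. The deposited estimated counts are not scaled between libraries, and 78.3% of those above 0 are not whole. The deposited FPKM and TPM are per length. The deposited normalised counts, a signal of the count times a factor per library, were not used.

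Counts were rounded to whole numbers and tested with edgeR 4.0.16 (R 4.3.3): TMM, filterByExpr by group, robust quasi-likelihood fit of all 9 libraries with a mean per group, and Benjamini-Hochberg adjustment over 14696 genes per comparison, threshold 0.05. The design had named plain counts. Library totals ran from 18907681 to 19565354, and the biological coefficient of variation was 3.14%. Libraries of a group differed by 1.8 to 3.54 in mean chi-square per gene, over 10813 genes averaging 100 counts or more, so none was a repeat deposit of another. Marker sums were compared with exact permutation tests, which cannot go below p = 0.1 with 3 against 3. FPKM was used for levels between genes. Gene positions and promoters are RefSeq's for GRCm38.p6.

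Alternatives were DESeq2 1.42.0 (size factors and Wald test), limma-voom (limma 3.58.1), library totals, no filter on low counts, a minimum of 10 counts in all libraries, a fit of just the compared groups, a threshold of 0.01 or of a 1.5-fold change, limma-trend on log2(FPKM + 1), log2(FPKM + 0.1) and log2(TPM + 1), offsets by 10 length bins, the replicate number as a block, and leaving out each library. Deviations of same-numbered libraries from their group means correlated at 0.277, 0.212 and 0.142 for APP/PS1 with WT. They correlated at 0.289, 0.191 and 0.104 for the knockout with WT and at 0.222, 0.233 and 0.055 for the knockout with APP/PS1. Between libraries of different numbers the correlations ran from -0.253 to 0.053. Same-numbered libraries thus shared deviations in all 3 comparisons, least for number 3. The labels do not say what the numbers mark. The values given are nonetheless from the fit without the block, and blocked values stand beside them where a call changed. The fits were also run on simulated counts whose libraries were drawn independently, unlike the same-numbered libraries here. No result given here rests on that run. Per-library values are given for the 3 members of each role with the largest change, for every member of roles of up to 4 genes, and for members called in all comparisons or turned by scaling. From the wider list the 5 genes with the largest called change are named. Members and lists were chosen with earlier results of these data known. Some genes are not reported here.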

Additional observations from a re-analysis of the deposited data

How the results depend on the processing

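Requiring at least a 1.5-fold change left 2834, 2566 and 1877 genes called in APP/PS1 against WT, knockout against APP/PS1 and knockout against WT. Among the 37 genes it left 16 higher and 1 lower in APP/PS1 against WT, and 0 higher and 3 lower in the knockout against APP/PS1. Library totals gave 9 lower genes in APP/PS1 against WT, FPKM with either pseudocount 8 and 8, and TPM 13, while TPM gave 7 lower in the knockout against APP/PS1 and 9 lower against WT. The median of the sterol enzymes in APP/PS1 against WT was 0.57 on library totals, 0.41 and 0.55 on FPKM with pseudocounts of 1 and 0.1, and 0.26 on TPM. In the knockout against WT it was 0.70, 0.57, 0.71 and 0.56 on these scales and 0.74 to 0.82 on leaving out each library. Between knockout and APP/PS1 it turned to 0.03 with length offsets, with or without the replicate block, and to 0.15 on TPM. On TPM, in APP/PS1 against WT, the log2 change was -0.28 for Mvk, -0.11 for Lss and Soat1, -0.08 for Srebf1 and Lipa, 0.00 for Srebf2 and -0.14 for Fasn. For the knockout against APP/PS1 on TPM it was 0.02 for Pmvk, 0.16 for Cyp51, 0.15 for Sc5d, 0.12 for Srebf1 and 0.00 for Abcg1. Against WT the knockout values on TPM were -0.08 for Scd2, -0.18 for Nr1h2, -0.01 for Npc1 and -0.16 for Mgll. Length offsets, with and without the replicate block, turned Npc1 in APP/PS1 against WT to 0.10 and Pmvk in the knockout against APP/PS1 to 0.29. Library totals turned Nr1h2 in the knockout against WT to -0.10, and the summed markers of microglia in that comparison to -0.04, of oligodendrocytes in APP/PS1 against WT to -0.10 and of vessels there to -0.13. The causes of these turns were not tested. The replicate block called 9319, 8851 and 7934 genes in the same order of comparisons. In the knockout against APP/PS1 it also called Nsdhl (-0.16, adjusted p 0.0413) and Lipa (0.07, adjusted p 0.016). Without length offsets, no other call among the 37 genes changed with the block, apart from that of Abcg1 given in the results. With length offsets, adding the block in that comparison also called Lss (-0.16, adjusted p 0.0441), Cyp51 (-0.08, adjusted p 0.0474), Nsdhl (-0.18, adjusted p 0.0227), Fdft1, Dhcr7 and Fasn. Outliers were not sought in groups of 3. Depth was low for Nr1h3, at 23 to 65 counts per library, and its SE was 0.19 to 0.22.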
